A study of Thlaspi arvense with 6 samples.

Results

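Cytochrome P450 genes were compared between mature (secreting) and immature (pre-secretory) nectaries of field pennycress, *Thlaspi arvense* cultivar MN108, a crucifer whose flowers carry 4 nectaries. The loci were chosen by annotation: a pennycress locus was counted as a P450 where the description of its best Arabidopsis match contained the words cytochrome P450, and loci described as family 86, family 77 or unknown protein were left out. Of 49 loci so described 5 belonged to families 86 and 77. This gave 44 of the 12335 loci, and a locus with several contigs was named after the most abundant one. RNA was sequenced from 3 mature samples (equivalent to flower stages 14 to 15 of Arabidopsis) and 3 immature samples (stages 11 to 12). All plants were of the same cultivar, untreated and about 40 days old. Each sample was a pool of about 100 nectaries by the sample labels (the methods of the study give a larger number), hand-dissected 4 to 8 h after dawn on several days from a set of plants of its own. Values are upper-quartile normalized read counts, rounded to whole numbers and summed over the assembled contigs of a locus. They were not divided by transcript length, so a level is compared between stages for 1 locus and not between loci, except where counts are said to be summed.

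Cytochrome P450s are heme enzymes of the endoplasmic reticulum and plastids that insert an oxygen atom into small molecules, with electrons delivered by an NADPH-dependent reductase and in some cases by cytochrome b5. In plants they make or break down most hormones, and they hydroxylate precursors of lignin, flavonoids, carotenoids, sterols and, in crucifers, the defence compounds called glucosinolates. They are named by family (a number), subfamily (a letter) and member (a number), and related families are grouped into clans that each bear the number of one family. The 44 loci covered 24 families and 31 subfamilies. Their best Arabidopsis matches were 41 different genes, since CYP71B7, CYP81F3 and LUT1 were each the best match of more than 1 locus. Functions given for a locus are those known for its match in Arabidopsis.

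The total of normalized counts was 14.7 to 22.7 M in mature samples and 10.6 to 14.2 M in immature samples, and gaps between the low values placed the reads behind them at roughly 11.7 to 16.3 M in mature and 12.2 to 16.9 M in immature samples. Ribosomal RNA took 27.0 to 62.6% of the mature totals and 12.4 to 41.8% of the immature totals, which left mature replicate 2 with the fewest other reads, about 4.32 M. Among 3 genes that mark nectaries, CRC, SWEET9 and CWINV4, all were found at high levels, with a sum of 244601, 263551 and 261848 in mature samples and 46688, 43481 and 74020 in immature samples. Of 13 pollen and anther markers 4 were found (VGD1, AGP11, AGP6 and ACA9). Their sum was 18865, 2263 and 6125 in mature replicates 1, 2 and 3, against 141, 336 and 126 in immature replicates 1, 2 and 3, so pollen RNA moved with the stage and most of it was in mature replicate 1. Of the other markers on that list, A9, MS2, ACOS5, LAP5, LAP6, VGDH1 and the pollen wall P450s CYP703A2, CYP704B1 and CYP98A8 were not in the table. Of 3 phloem markers SUC2 and SEOR1 were found, with a sum of 90, 84 and 130 in mature samples against 273, 547 and 278 in immature samples. SEOR1 was lower in mature samples, while SUC2 had 87, 70 and 118 against 102, 220 and 75 and was not called (limma adjusted p = 0.385). Of 2 stomatal markers FAMA was found, with 72, 119 and 81 against 151, 175 and 140. None of 3 carpel and ovule markers (INO, SPT and STK) or of 2 xylem markers (IRX3 and XCP1) was in the table. In bulk tissue fewer cells of a type and less RNA per cell cannot be told apart.

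The 44 P450 loci together took a larger share of the RNA in mature nectaries. The 44 loci summed to 98625, 89903 and 93807 normalized counts in mature samples and to 19305, 17992 and 22199 in immature samples, a 4.75-fold difference of the means (94112 ± 4369 against 19832 ± 2152, SD, n = 3 each). Their share of the counts outside ribosomal RNA and organelles was 0.928%, 1.07% and 0.968% in mature samples, against 0.231%, 0.220% and 0.241% in immature samples. The stages did not overlap, but an exact permutation test of 3 against 3 samples cannot give a two-sided p under 0.1, which was the value obtained. A single locus, Ta14848 (CYP72A14), held 71.1%, 70.5% and 69.3% of this sum in mature samples and 7.95%, 7.01% and 3.79% in immature samples. Without it the sums were 28522, 26520 and 28824 in mature samples against 17770, 16731 and 21357 in immature samples, 1.50-fold (exact permutation p = 0.1). Beyond Ta14848, CYP81D8 (Ta00154), CYP98A3 (Ta07286) and CYP72C1 (Ta03804) added most to the mature sum, and the other 40 loci together had 12858, 9553 and 10585 in mature samples against 15609, 14760 and 19162 in immature samples. P450 loci outside the rule are in none of these sums, and sums with them were not computed. Of the 5 left out as families 86 and 77, CYP77A6 (Ta06115) averaged 36.7 in mature and 1737 in immature samples, and CYP86A7 (Ta16511) 2.0 and 849. CYP86A2 (Ta18167) averaged 568 and 1455, CYP86A8 (Ta20996) 54.0 and 140, and the CYP77A5 pseudogene (Ta20129) 167 and 123.

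**Figure D1:**
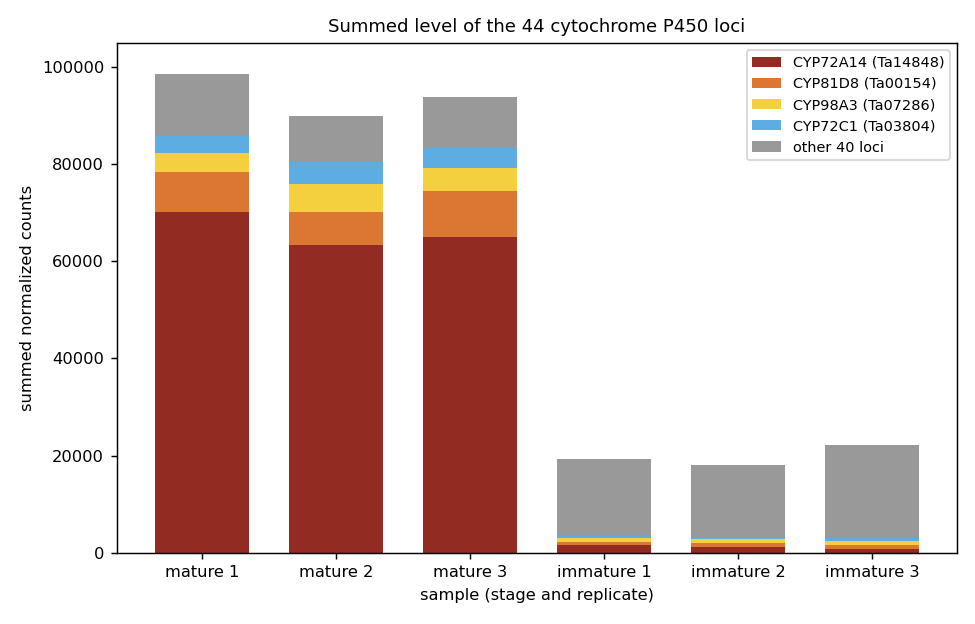
Summed normalized counts of the 44 cytochrome P450 loci (vertical axis) in each sample, mature samples left of immature samples. Each bar is 1 sample and its colours are the 4 loci with the highest mature means and the other 40 loci together; the CYP72A14 locus Ta14848 fills 69.3 to 71.1% of the mature bars and 3.79 to 7.95% of the immature bars.

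Of the 44 loci, 41 reached a mean of 100 in at least 1 stage and were tested with limma on log2(sum + 1), with Benjamini-Hochberg adjustment over all 11780 loci that passed this filter. At an adjusted p under 0.05, 12 of the 41 (29.3%) were higher in mature nectaries, beside 28.4% of all loci tested, and 20 (48.8%) were lower, beside 35.9%. Over 2-fold as well, 10 (24.4%) were higher, beside 13.8% of all loci, and 16 (39.0%) were lower, beside 23.0%. The share called higher was thus close to that of all loci, and the share called lower and both shares past 2-fold were above theirs, a description that was not tested. Changes over 4-fold were carried by 6 higher P450 loci (14.6%, beside 5.12% of all loci) and 10 lower ones (24.4%, beside 9.94%). The samples of the stages did not overlap for 33 of 41 loci (80.5%), beside 70.1% of all loci. The median log2 fold change was -0.49 over the 41 P450 loci and -0.09 over all loci, and the median of its absolute value was 1.78 and 0.72. Across the 41 loci, which are not independent replicates, the log2 values of samples of 1 stage correlated with r of 0.908 to 0.971 and those of samples of different stages with r of 0.0765 to 0.185. Over all loci these ranges were 0.948 to 0.982 and 0.531 to 0.594.

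**Figure D2:**
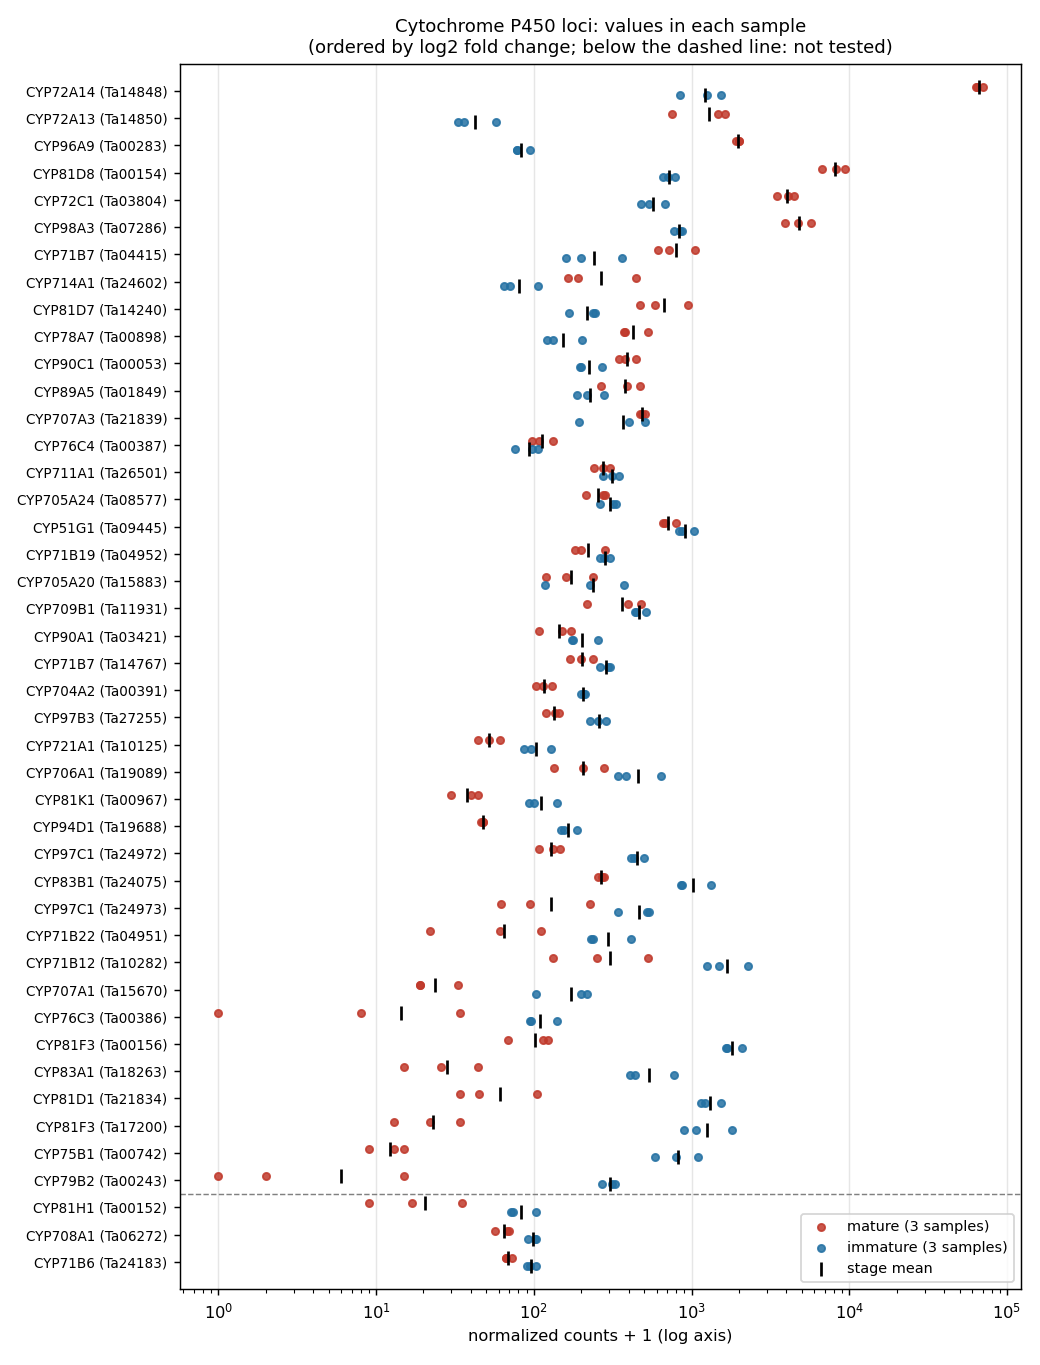
Normalized counts + 1 of each cytochrome P450 locus (log axis) in the 3 mature samples (red, upper dots of each line) and the 3 immature samples (blue, lower dots), with stage means as black ticks. Loci run from the highest to the lowest log2 fold change, 5.81 to -6.60, and the 3 loci below the dashed line were not tested; 2 loci, CYP76C3 and CYP79B2, had a sample at 0.

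Clan 72 held the largest increase. Of its 6 loci 4 rose, 1 fell and 1 was not called, beside 28.4% higher and 35.9% lower among all loci tested. Ta14848 had 70103, 63383 and 64983 normalized counts in mature samples and 1535, 1261 and 842 in immature samples. The lowest mature sample was far above the highest immature sample. Its log2 fold change was 5.81 ± 0.24 (SE; 54.6-fold, limma adjusted p = 2.68e-06). Ta14850 (CYP72A13) had 1618, 753 and 1474 in mature samples and 35, 32 and 57 in immature samples, with a log2 fold change of 4.89 ± 0.33 (31.0-fold, limma adjusted p = 1.11e-05). These were the only CYP72A loci of the table. CYP72C1, also called SOB7, is an enzyme that inactivates brassinosteroids, the steroid hormones of plant growth. Its locus Ta03804 had 3485, 4485 and 4079 in mature samples against 681, 475 and 539 in immature samples (7.11-fold; log2 fold change 2.84 ± 0.18, limma adjusted p = 8.95e-06). CYP714A1 (ELA1) inactivates gibberellins. Its locus Ta24602 rose with 443, 165 and 191 in mature samples against 105, 64 and 70 in immature samples (log2 fold change 1.62 ± 0.37, limma adjusted p = 0.00559), where mature replicate 1 stood above the other mature samples. The locus that fell was Ta10125 (CYP721A1), with 60, 43 and 51 in mature samples against 86, 127 and 95 in immature samples (log2 fold change -0.98 ± 0.25, limma adjusted p = 0.00833). Ta11931 (CYP709B1) had 477, 218 and 397 against 447, 440 and 510 and was not called (limma adjusted p = 0.197).

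The CYP72A loci were each assembled in pieces, which matched several CYP72A genes of Arabidopsis. The main contig of Ta14848 matched CYP72A14 and averaged 49505 ± 5255 in mature samples and 588 ± 246 in immature samples, 84.2-fold. A contig that matched CYP72A9, which encodes a hydroxylase of gibberellins, averaged 11390 ± 1931 and 128 ± 73.1, 88.8-fold. A contig matching CYP72A13 was 31.7-fold higher in mature nectaries. The contigs matching CYP72A11 had smaller ratios: 1409 ± 221 against 222 ± 7.81 (6.35-fold) and 897 ± 162 against 157 ± 15.3 (5.73-fold). The smallest contig, matching CYP72A15, averaged 89.3 ± 19.2 against 27.3 ± 4.73 and was below the filter. All 5 contigs of Ta14848 that passed the filter were called higher in a limma fit to the 14936 contigs tested, and so were all 5 contigs of Ta14850, with 25.3-fold to 45.1-fold ratios. The sources used here do not say how the authors' counting divided reads between near-identical CYP72A copies, so the division of counts between Ta14848 and Ta14850 and among their contigs is uncertain.

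**Figure D3:**
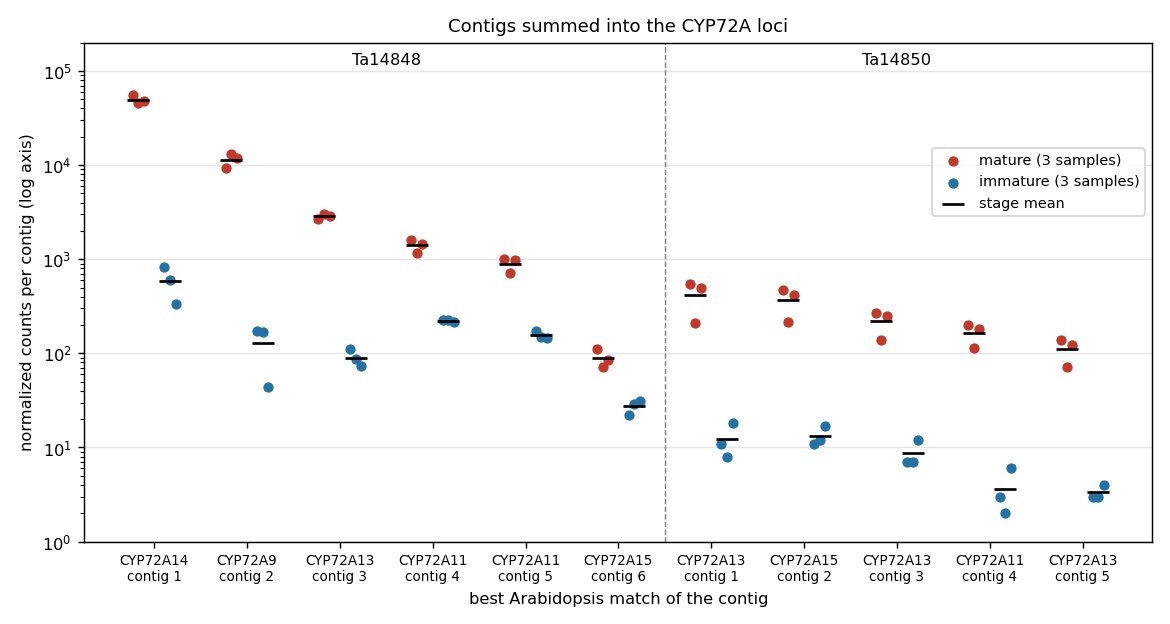
Normalized counts per contig (log axis) of the 6 contigs of Ta14848 and the 5 contigs of Ta14850, named by the best Arabidopsis match. Red dots are the 3 mature samples, blue dots to their right the 3 immature samples and black bars the stage means; mature samples lie above immature samples for every contig shown, by 3.27-fold to 88.8-fold in the means.

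Other loci that rose came from families with varied chemistry. Ta00283 (CYP96A9) belongs to the family of the enzyme that hydroxylates alkanes of stem wax. It had 1998, 1912 and 2006 in mature samples and 77, 77 and 93 in immature samples. Its mature replicates lay closer together than those of the other risen P450 loci, and its log2 fold change was 4.57 ± 0.13 (24.0-fold, limma adjusted p = 5.57e-07). Ta00154 (CYP81D8, in Arabidopsis a gene known for induction by foreign chemicals) had 8254, 6744 and 9438 in mature samples against 706, 657 and 781 in immature samples, 11.4-fold (log2 fold change 3.50 ± 0.17, limma adjusted p = 4.06e-06). The 3 contigs of this locus did not move as one. The contig matching CYP81D8 averaged 8012 ± 1334 in mature and 466 ± 59.5 in immature nectaries, while a contig matching CYP81D5 averaged 114 ± 26.5 and 149 ± 8.96 (contig limma adjusted p = 0.122) and another 19.0 ± 2.65 and 99.7 ± 12.3, below the filter. Ta04415 (CYP71B7) rose with 1053, 609 and 722 in mature samples against 197, 158 and 360 in immature samples (log2 fold change 1.78 ± 0.32, limma adjusted p = 0.00151). Ta14240 (CYP81D7) rose with 583, 945 and 472 against 238, 244 and 166 (log2 fold change 1.58 ± 0.27, limma adjusted p = 0.00117). In both loci the stages were separate but the mature samples were spread. Ta00898 (CYP78A7, of the subfamily of KLUH, which promotes growth of floral organs) rose with 529, 373 and 376 in mature samples against 121, 132 and 202 in immature samples (log2 fold change 1.50 ± 0.23, limma adjusted p = 0.00068). The weakest call was Ta01849 (CYP89A5), whose stages overlapped at 389, 266 and 472 in mature samples against 187, 215 and 278 in immature samples (log2 fold change 0.71 ± 0.24, limma adjusted p = 0.0298). This call was lost without mature replicate 1 or 3 and without immature replicate 1 or 2, with limma adjusted p of 0.0625, 0.105, 0.110 and 0.0789 in that order.

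P450s of hormone metabolism changed in both directions. A list of 72 Arabidopsis P450 genes with textbook roles matched 19 of the 44 loci. Of 3 brassinosteroid loci 2 rose and 1 was not called, beside 28.4% higher and 35.9% lower among all loci tested. Beside SOB7, ROT3 (CYP90C1, Ta00053), a hydroxylase of brassinosteroid synthesis, rose with 444, 346 and 380 in mature samples against 199, 196 and 270 in immature samples (log2 fold change 0.82 ± 0.17, limma adjusted p = 0.00366). CPD (CYP90A1, Ta03421), an oxidase of the same pathway, had 172, 107 and 151 in mature samples and 175, 176 and 253 in immature samples. These values did not overlap but the test did not call it (log2 fold change -0.49 ± 0.23, 95% interval -1.02 to 0.04, limma adjusted p = 0.0913). CYP707A1 and CYP707A3 encode the hydroxylases that break down abscisic acid, the hormone of drought and dormancy. Ta15670 (CYP707A1) fell to 32, 18 and 18 in mature samples, against 197, 217 and 103 in immature samples (7.60-fold lower; log2 fold change -2.85 ± 0.37, limma adjusted p = 0.000281). Ta21839 (CYP707A3) had 509, 471 and 481 against 403, 508 and 192 and was not called, with immature samples spread far wider than mature ones (log2 fold change 0.52 ± 0.32, 95% interval -0.22 to 1.25, limma adjusted p = 0.187). MAX1 (CYP711A1, Ta26501), an oxidase of strigolactone synthesis, had 304, 239 and 273 in mature samples and 313, 275 and 346 in immature samples (log2 fold change -0.19 ± 0.15, 95% interval -0.55 to 0.16, limma adjusted p = 0.29). It was called lower only after rescaling to the total without ribosomal RNA and organelles (limma adjusted p = 0.0201).

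**Figure D4:**
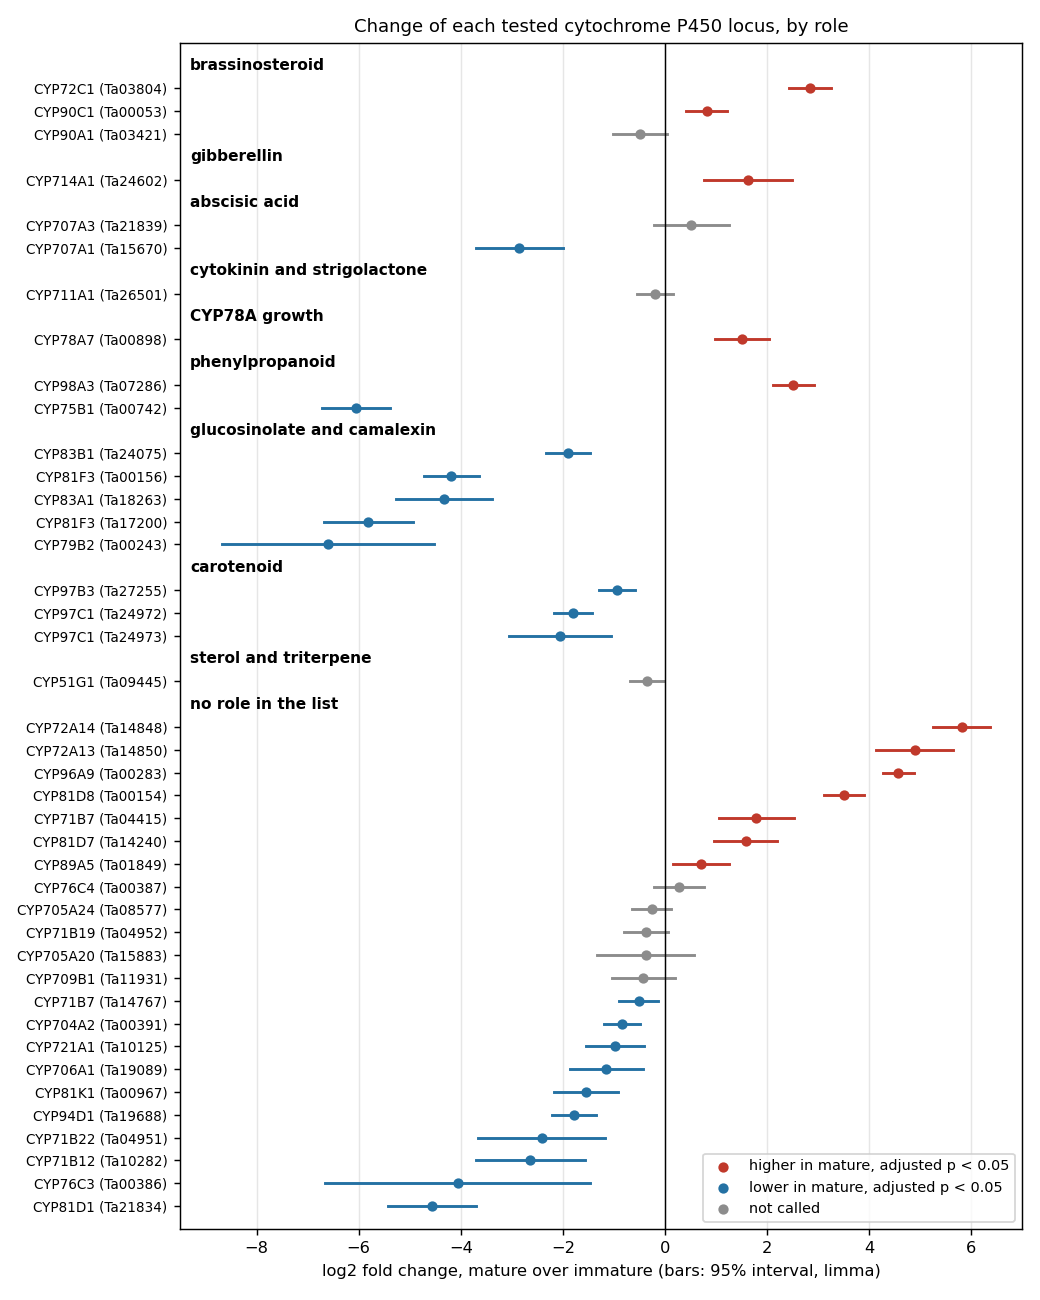
Log2 fold change of mature over immature nectaries (horizontal axis) for the 41 tested cytochrome P450 loci, grouped by the role of the Arabidopsis match, with 95% intervals from limma as bars. Red loci were higher, blue loci lower and grey loci not called at an adjusted p of 0.05; the 5 glucosinolate and camalexin loci and the 3 carotenoid loci are all blue, from -6.60 to -0.94.

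Of the 44 loci, 5 matched listed P450s of glucosinolate and camalexin synthesis, defence pathways of crucifers. All 5 were lower in mature nectaries and fell over 2-fold, beside 23.0% of all loci tested. Their median log2 fold change was -4.33, beside -0.09 over all loci. Their sum was 441, 402 and 421 in mature samples against 4151, 4315 and 6324 in immature samples. Ta00243 matched CYP79B2, which converts tryptophan to the oxime from which indole glucosinolates, camalexin and some auxin are made. It had 14, 0 and 1 in mature samples and 268, 313 and 325 in immature samples. About 15.5, 0 and 0.8 reads stood behind the mature values, so the size of the difference is uncertain and the log2 fold change of -6.60 ± 0.90 (limma adjusted p = 0.000367) became -4.49 with a pseudocount of 10 and -7.09 with one of 0.5. It was -7.74 without mature replicate 1 and -5.78 without mature replicate 2. CYP83B1 and CYP83A1 take such oximes onward, CYP83B1 mainly for indole and CYP83A1 mainly for aliphatic glucosinolates. Ta24075 (CYP83B1) had 268, 253 and 276 in mature samples against 861, 865 and 1320 in immature samples (3.82-fold lower; log2 fold change -1.90 ± 0.19, limma adjusted p = 6.55e-05). Ta18263 (CYP83A1) had 25, 14 and 43 against 438, 409 and 775 (19.8-fold lower; log2 fold change -4.33 ± 0.41, limma adjusted p = 5.31e-05). In all these loci every mature sample lay below every immature sample. CYP81F3 modifies the ring of indole glucosinolates, and both loci that matched it fell. Ta17200 had 21, 12 and 33 in mature samples against 898, 1067 and 1809 in immature samples (57.2-fold lower; log2 fold change -5.82 ± 0.38, limma adjusted p = 1.03e-05). Ta00156 had 113, 123 and 68 against 1686, 1661 and 2095 (17.9-fold lower; log2 fold change -4.19 ± 0.23, limma adjusted p = 5.78e-06). Within Ta00156 the contig matching CYP81F3 averaged 30.0 ± 11.8 in mature and 1703 ± 251 in immature nectaries, and a contig matching CYP91A2 averaged 71.3 ± 20.4 and 111 ± 9.71 (contig limma adjusted p = 0.0553). The CYP91A2 contig thus supplied most of the counts left in the mature samples.

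Phenylpropanoid P450s, which serve lignin and flavonoids, moved apart. CYP98A3 (Ta07286) hydroxylates coumaroyl esters on the way to lignin. It rose with 3925, 5738 and 4722 in mature samples against 774, 839 and 875 in immature samples (5.78-fold; log2 fold change 2.51 ± 0.17, limma adjusted p = 1.21e-05). TT7 (CYP75B1, Ta00742), the flavonoid hydroxylase that leads to quercetin and cyanidin, fell to 14, 8 and 12 in mature samples, against 791, 590 and 1093 in immature samples. The difference was 72.8-fold (log2 fold change -6.05 ± 0.29, limma adjusted p = 3.94e-06), and with a pseudocount of 10 the log2 fold change was -5.26, with about 15.5, 4.1 and 9.2 reads behind the mature values. With the annotation rule, other P450s of the pathway were not counted among the 44, because their descriptions do not use the words cytochrome P450. Of these C4H (Ta14912), which hydroxylates cinnamate, rose with 430, 939 and 1137 in mature samples against 197, 203 and 262 in immature samples (log2 fold change 1.81 ± 0.34, limma adjusted p = 0.0018). FAH1 (Ta00044), which leads to syringyl lignin and sinapate esters, fell to 1942, 1157 and 1498 in mature samples, against 2255, 2351 and 4314 in immature samples (log2 fold change -0.92 ± 0.29, limma adjusted p = 0.0226), and its call was lost without mature replicate 2 or 3 or immature replicate 3 (limma adjusted p of 0.0648, 0.0614 and 0.0532).

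The 3 carotenoid P450 loci among the 44 matched LUT1 or CYP97B3, and all 3 fell, beside 35.9% of all loci tested. LUT1 (CYP97C1) hydroxylates a carotenoid ring on the way to lutein in plastids and was the match of 2 loci. Ta24972 had 145, 107 and 131 in mature samples against 411, 434 and 501 in immature samples (log2 fold change -1.81 ± 0.16, limma adjusted p = 4.2e-05). Ta24973 had 227, 61 and 93 against 522, 341 and 536 (log2 fold change -2.06 ± 0.43, limma adjusted p = 0.00356), with wider spread in the mature samples. Whether these 2 loci are parts of 1 gene was not tested. CYP97B3 (Ta27255), a related plastid enzyme, had 143, 119 and 136 against 227, 255 and 288 (log2 fold change -0.94 ± 0.16, limma adjusted p = 0.000958). A contig matching CYP97A3, of the same CYP97 family, was summed by the authors' table into a formin locus (Ta12637) and was not among the 44. This contig averaged 308 ± 111 in mature and 405 ± 46.7 in immature nectaries and was not called (contig limma adjusted p = 0.151). CYP51G1 (Ta09445), the sterol demethylase, had 791, 663 and 674 in mature samples and 874, 836 and 1029 in immature samples. Its stages did not overlap, yet it was not called (log2 fold change -0.36 ± 0.14, 95% interval -0.69 to -0.03, limma adjusted p = 0.0552). Its main contig was lower in mature nectaries (347 ± 59.6 against 612 ± 140, contig limma adjusted p = 0.0109) and the other was not called (363 ± 57.8 against 301 ± 38.1, contig limma adjusted p = 0.225). It was called lower without mature replicate 1 (limma adjusted p = 0.0323) and under rescaling to the total without ribosomal RNA and organelles (limma adjusted p = 0.00251).

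The CYP81 and CYP71B loci show how far close relatives differed. Of 7 CYP81 loci 6 were tested: 2 CYP81D loci rose, and a CYP81D, the CYP81K and both CYP81F loci fell. Among all loci tested 28.4% were higher and 35.9% lower. Ta21834 (CYP81D1) had 104, 33 and 44 in mature samples against 1211, 1156 and 1533 in immature samples (21.5-fold lower; log2 fold change -4.57 ± 0.37, limma adjusted p = 2.83e-05), opposite in direction to CYP81D8 and CYP81D7. Ta00967 (CYP81K1) had 43, 29 and 39 against 139, 92 and 99 (log2 fold change -1.54 ± 0.27, limma adjusted p = 0.00141). The CYP71B subfamily had 6 loci, of which 5 were tested, with 1 higher, 3 lower and 1 not called, beside the same shares of all loci. The log2 fold changes of the CYP71B loci were -2.64 to 1.78. Ta10282 (CYP71B12) fell the most of them, with 532, 132 and 250 in mature samples against 1501, 1245 and 2290 in immature samples (5.51-fold lower; log2 fold change -2.64 ± 0.46, limma adjusted p = 0.00133). Ta04951 (CYP71B22) fell with 110, 60 and 21 against 415, 228 and 237 (log2 fold change -2.42 ± 0.54, limma adjusted p = 0.00467), and the log2 fold change was -1.78 without mature replicate 3. CYP71B7 was the match of both the riser Ta04415 and of Ta14767, which fell with 198, 169 and 238 in mature samples against 294, 263 and 304 in immature samples (log2 fold change -0.52 ± 0.16, limma adjusted p = 0.0224). The call of Ta14767 was lost without immature replicate 1 or 3 (limma adjusted p of 0.0783 and 0.0719). Ta04952 (CYP71B19) had 280, 181 and 198 in mature samples against 278, 261 and 302 in immature samples and was not called (limma adjusted p = 0.109). It was called lower without mature replicate 1 (limma adjusted p = 0.0116) and under the rescaling named above (limma adjusted p = 0.00763), and so were CYP709B1 (0.0462 and 0.0308) and CPD (0.0443 and 0.00855).

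The remaining loci came from several families. CYP76C enzymes of Arabidopsis oxidize floral monoterpenols such as linalool. Ta00386 (CYP76C3) fell to 33, 0 and 7 in mature samples, against 93, 95 and 139 in immature samples (log2 fold change -4.06 ± 1.13, limma adjusted p = 0.0131). The log2 size rests on the sample at 0 and was -2.71 without it, -5.26 without mature replicate 1 and -2.59 with a pseudocount of 10. Without immature replicate 3 this locus was below the filter. Its relative Ta00387 (CYP76C4) had 131, 107 and 97 against 75, 97 and 106 and was not called (limma adjusted p = 0.289). Ta19688 (CYP94D1) had 45, 47 and 47 in mature samples against 148, 155 and 186 in immature samples (log2 fold change -1.79 ± 0.19, limma adjusted p = 9.47e-05). Its mature replicates were nearly equal. Ta00391 (CYP704A2) had 130, 113 and 102 against 210, 208 and 199 (log2 fold change -0.84 ± 0.15, limma adjusted p = 0.00164). Ta19089 (CYP706A1) had 278, 204 and 134 against 637, 382 and 343 (log2 fold change -1.15 ± 0.31, limma adjusted p = 0.0118). Both CYP705A loci overlapped between stages and were not called: Ta08577 (CYP705A24) averaged 255 ± 37.4 in mature and 305 ± 36.9 in immature nectaries, and Ta15883 (CYP705A20) 171 ± 59.3 and 238 ± 128. The 3 loci below the filter were Ta00152 (CYP81H1), Ta06272 (CYP708A1) and Ta24183 (CYP71B6). Their means were 19.3 ± 13.3, 64.0 ± 7.0 and 68.0 ± 3.46 in mature nectaries, against 82.3 ± 17.9, 98.0 ± 6.08 and 95.7 ± 6.66 in immature nectaries.

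Among P450s outside the rule that were on the list of roles, hormone genes again differed by step. BR6OX2 (Ta24927), the last oxidase of brassinosteroid synthesis, rose with 324, 368 and 452 in mature samples against 68, 87 and 76 in immature samples (log2 fold change 2.29 ± 0.18, limma adjusted p = 2.21e-05). KO (Ta16905), the kaurene oxidase of gibberellin synthesis, fell with 1302, 1064 and 1191 in mature samples against 1737, 1639 and 2940 in immature samples (log2 fold change -0.78 ± 0.23, limma adjusted p = 0.0178; 0.05 without mature replicate 3). Of the oxylipin enzymes AOS (Ta27195), at the entry to jasmonate synthesis, was not called (739, 562 and 584 against 414, 535 and 599, limma adjusted p = 0.193), but it was called higher under rescaling by the median of ratios (limma adjusted p = 0.0466). HPL1 (Ta13997), which makes leaf aldehydes from the same substrate, fell with 696, 292 and 362 in mature samples against 2278, 2234 and 3199 in immature samples (log2 fold change -2.59 ± 0.31, limma adjusted p = 0.00019).

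Of 10 partner genes, which pass electrons to P450s or hold them in the membrane, 9 were found: 2 were higher, 2 lower and 5 not called. Beside them, 28.4% of all loci tested were higher and 35.9% lower. The reductase ATR1 (Ta11642) had 1184, 786 and 988 in mature samples and 1027, 978 and 1168 in immature samples and was not called (log2 fold change -0.12, 95% interval -0.52 to 0.29, limma adjusted p = 0.579). ATR2 (Ta09241), the reductase tied to phenylpropanoid P450s, was higher with 2395, 2254 and 2943 in mature samples against 1464, 1345 and 2258 in immature samples (log2 fold change 0.61 ± 0.22, limma adjusted p = 0.0388). The ATR2 samples overlapped by 1 value, and its call was lost without mature replicate 1 or 3, without immature replicate 1 or 2 and under rescaling to the total without ribosomal RNA and organelles (limma adjusted p of 0.0517, 0.131, 0.129, 0.142 and 0.0529). The cytochrome b5 genes split. CB5-C (Ta10567) fell to 10, 12 and 14 in mature samples, against 324, 532 and 442 in immature samples (36.1-fold lower; log2 fold change -5.04 ± 0.26, limma adjusted p = 4.58e-06), and -4.31 with a pseudocount of 10. CB5-B (Ta21428) rose with 600, 739 and 714 against 221, 205 and 216 (3.20-fold; log2 fold change 1.67 ± 0.13, limma adjusted p = 2.62e-05). CB5-A (Ta17096) and CB5-E (Ta21162) were not called (limma adjusted p = 0.307 and 0.0572). CB5-E was called higher without mature replicate 1 (limma adjusted p = 0.0355) and under rescaling by the median of ratios (limma adjusted p = 0.0323). CBR1 (Ta26206), the reductase of cytochrome b5, fell with 963, 1148 and 1298 in mature samples against 2331, 2780 and 2712 in immature samples (log2 fold change -1.20 ± 0.16, limma adjusted p = 0.000323). The scaffolds that hold P450s of lignin synthesis in the membrane, MSBP1 (Ta24522) and MSBP2 (Ta13358), were not called, with log2 fold changes of 0.11 and -0.02.

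Pollen markers moved with the stage, so their values by mature sample are set beside those of the P450 loci that rose. The highest mature sample exceeded the lowest by 7.04-fold to 8.77-fold for the 4 pollen markers, and by 1.05-fold (CYP96A9) to 2.68-fold (CYP714A1) for the 12 P450 loci that rose. For Ta14848 it was 1.11-fold. Without mature replicate 1, which had most pollen RNA, the ratio of mature to immature means was 52.9 for Ta14848, 26.9 for Ta14850, 23.8 for CYP96A9 and 11.3 for CYP81D8, and 2.23 for CYP714A1, against 3.34 with all samples. In that fit 11 of 41 P450 loci (26.8%) were higher and 24 (58.5%) lower, beside 25.3% and 38.8% of all loci. Mature replicate 1 was the highest mature sample of several loci that fell too, with 532 of CYP71B12, 227 of the LUT1 locus Ta24973, 33 of CYP76C3 and 14 of CYP79B2. The part of pollen RNA in these differences was not tested, nor was that of phloem and stomatal cells. Of their markers SEOR1 and FAMA fell with the stage, and the phloem marker SUC2 was not called.

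**Figure D5:**
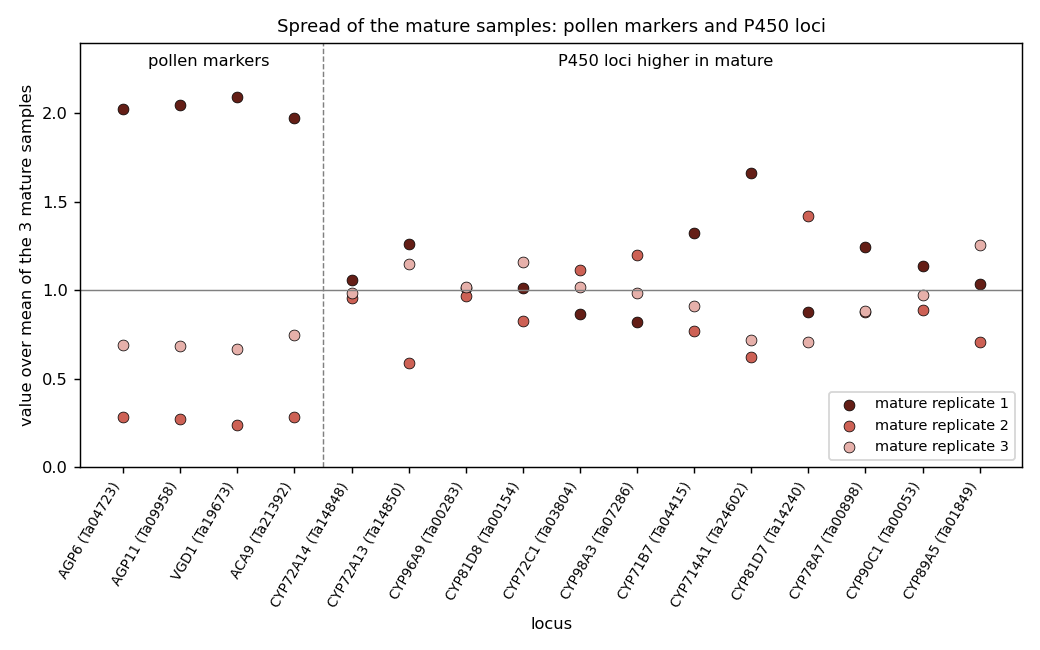
Value of each mature sample divided by the mean of the 3 mature samples (vertical axis) for the 4 pollen markers and the 12 cytochrome P450 loci higher in mature nectaries. Shades of red mark replicates 1 (dark), 2 and 3 (light); the pollen markers reach 1.98 to 2.09 in replicate 1 and 0.239 to 0.285 in replicate 2, and among the P450 loci CYP714A1 is the most spread, at 1.66, 0.620 and 0.717.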

How the data were processed

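RNA of 3 mature and 3 immature nectary samples was sequenced by the authors as 50 bp paired reads, which were assembled into contigs, counted on them by blastn (E-value limit 1e-05) and scaled by upper quartiles. The deposited values are these scores per contig: normalized counts rounded to whole numbers by the authors, for which no count model was used. The deposited ratios and p-values of the authors' own comparison were not used. No genome was used here and the sources used here name no pennycress build.

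Contigs were summed by predicted locus, named after the contig with the highest mean, and 617 of 16074 contigs without a locus were left out. limma 3.58.1 (R 4.3.3) with a mean-variance trend was fitted to log2(sum + 1) of the 11780 loci that reached a mean of 100 in at least 1 stage, two-sided and without a replicate block. Python 3.11.15, pandas 2.3.3, numpy 2.4.6, scipy 1.17.1 and matplotlib 3.10.9 made the tables and figures, and the fit was tested on simulated data. The added 1 makes the log2 fold changes of low loci too small. Names of the 5 loci described only as superfamily proteins (CPD, ROT3, TT7 and the 2 of LUT1), the 72 P450 roles, partners and markers came from Arabidopsis locus numbers and textbook knowledge. Named loci are the 10 most abundant P450 loci, the 10 largest increases and decreases over 2-fold without overlap, all with a listed role, the extremes of subfamilies of 4 or more, and all partners and markers; the remaining P450 loci are given so that each of the 44 is accounted for. The members and lists were chosen with earlier results of these data known. Alternatives were other pseudocounts, filters, scalings and limma settings, the main contig in place of the sum, a replicate block and leaving out each sample. Fits with voom weights on approximate reads and to single contigs were chosen after seeing the data. Depth was estimated from gaps between low values and limits precision of values under about 20 most.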

Additional observations from a re-analysis of the deposited data

How the results depend on the processing

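Over 17 alternatives 34 of the 41 tested P450 loci kept their call in each one that tested them (11 higher, 19 lower and 4 not called), and of 668 values of single P450 loci 0 changed sign with a call, 6 lost a call and 10 gained one. The stricter filter, a mean of 500 or more in at least 1 stage, left 16 of the 41 loci. Of these 8 were higher (50.0%, beside 37.5% of all loci) and 7 lower (43.8%, beside 31.6%), against 20 lower with the filter at 100. Over 2-fold lower were 7, against 16. The median log2 fold change was 0.61 (0.11 over all loci), against -0.49 (-0.09 over all loci) with the filter at 100, since most P450 loci that fell had means under 500. Rescaling to the total without ribosomal RNA and organelles moved the median of all loci to -0.26, against -0.09, and called 27 of 43 P450 loci lower and 12 higher, beside 44.4% and 25.2% of all loci. The median of ratios moved it to 0.02 and called 19 of 40 lower and 12 higher, beside 35.2% and 34.8%. Leaving out 1 sample gave 11 to 12 loci higher and 18 to 24 lower, beside 23.2 to 31.9% and 30.6 to 38.8% of all loci. In these fits 10 were over 2-fold higher and 15 to 18 over 2-fold lower. The median was -0.64 to -0.40, and the summed level was 4.54-fold to 5.05-fold higher, or 1.43-fold to 1.62-fold without Ta14848. Deviations of same-numbered samples of the stages correlated at -0.07, 0.01 and 0.20, beside -0.18 to 0.19 for samples of unlike numbers. With 3 samples per stage these values show no clear pairing by replicate number but cannot exclude one. A replicate block gave 12 higher and 20 lower, beside 29.3% and 36.7% of all loci. An adjusted p under 0.01 left 11 higher and 17 lower. Shares of all loci were not computed for this limit, or for the 2-fold counts without 1 sample or under the stricter filter. Depth limits the size of the largest decreases: about 0 to 36.6 reads stood behind each mature value of CYP79B2, CYP76C3, TT7, CYP83A1 and the CYP81F3 locus Ta17200.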
